A study of Mus musculus with 38 samples.

Results

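The 10 named genes of blood vessel endothelium were followed over the arrays of a mouse breast cancer study: the junction and adhesion genes Cdh5, Cldn5, Esam, Pecam1 and Emcn, the vascular endothelial growth factor receptors Kdr and Flt1, the receptors Tek and Tie1, and the transforming growth factor co-receptor Eng. The members were the probes, control spots left out, that the array files name for these genes. Of the 10 genes, 9 were found under their own names and Esam under its older name Esam1, matched by accession. They hold 18 of the 41174 probes and are 10 of the 28781 gene names measured. Flt1 has 5 probes, Pecam1, Cdh5, Kdr and Tek have 2 each, and the other 5 genes have 1. Each gene is described by its probe with the highest mean signal, and for the 5 genes with others these are described beside it.

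The study profiled tumor cells of the MMTV-PyMT model, whose mammary tumors arise from a transgene for polyoma middle T under a viral promoter (MMTV). Hyperplasias of mice that also carried an actin-GFP transgene, which is not restricted to epithelium, were transplanted into fat pads, cleared of their own epithelium, of FVB/n females. The sample labels say breast cancer tissue, and the study's methods state that GFP-positive cells were sorted from each population by FACS before RNA was prepared. Gene expression was measured on 38 Agilent arrays of 2 colors, with the sample in Cy5 and a pooled mouse reference RNA in Cy3 on every array.

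The progression experiment held 5 adenomas (5-week outgrowths), 6 carcinomas (18-week outgrowths), 6 samples of disseminated cells and 5 of metastases. Disseminated cells came from the lungs of mice that bore 18-week outgrowths, with the lungs of 3 to 6 mice pooled for a sample, and metastases from lungs after the primary tumor had been removed. Their RNA went through 2 rounds of amplification. The chemotherapy experiment held 6 untreated tumors, 6 tumors labeled regressed, collected 10 days after 1 dose, and 4 tumors labeled resistant, collected 10 days after the last of 4 doses. These mice received docetaxel, doxorubicin and cyclophosphamide from 2 months after transplant, and the labels regressed and resistant were taken as the residual and relapsed tumors of the study. The labels do not say which samples came from separate animals, so p-values measure the spread between these samples. All values are log2 ratios of sample to reference, a level that can be compared between arrays for 1 probe and not between probes.

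Endothelial cells line blood vessels and hold together through adherens and tight junctions. Kdr and Flt1 bind vascular endothelial growth factors, Tek binds angiopoietins, and Tie1 modulates Tek. Lung is among the tissues richest in capillary endothelium, and tumors recruit vessels from the host as they grow. The FVB/n hosts are not described as carrying GFP, so a sort for GFP would remove host cells of vessels, lung and blood, and how completely it did so was not tested. In a pool of sorted cells, fewer endothelial cells and less RNA of these genes per cell cannot be told apart.

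Promoter sequences of RefSeq (build GRCm38.p6) were held for 7 of the 10 genes, and the 250 bases before the start are printed for the 5 of them that differed most widely between disseminated cells and adenomas in the test described below. ETS factors are transcription factors of endothelial and blood cells whose sites hold a GGAA core. Capitals mark the letters CCGGAA or AGGAAG on either strand. The promoters stand at chr5:147726012-147726261 on the minus strand (Flt1), chr16:18776597-18776846 on the plus strand (Cldn5), chr5:75978456-75978705 on the minus strand (Kdr), chr3:137340828-137341077 on the plus strand (Emcn) and chr4:118489850-118490099 on the minus strand (Tie1).
Flt1: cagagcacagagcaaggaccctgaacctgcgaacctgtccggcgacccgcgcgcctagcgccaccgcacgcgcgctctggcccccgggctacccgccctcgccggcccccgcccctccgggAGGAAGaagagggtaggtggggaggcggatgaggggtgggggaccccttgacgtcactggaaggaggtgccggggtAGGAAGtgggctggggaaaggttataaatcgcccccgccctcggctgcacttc
Cldn5: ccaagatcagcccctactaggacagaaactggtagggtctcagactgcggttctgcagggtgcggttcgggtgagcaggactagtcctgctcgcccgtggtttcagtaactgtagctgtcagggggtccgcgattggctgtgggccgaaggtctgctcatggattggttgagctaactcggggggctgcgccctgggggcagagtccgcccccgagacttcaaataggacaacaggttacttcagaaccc
Kdr: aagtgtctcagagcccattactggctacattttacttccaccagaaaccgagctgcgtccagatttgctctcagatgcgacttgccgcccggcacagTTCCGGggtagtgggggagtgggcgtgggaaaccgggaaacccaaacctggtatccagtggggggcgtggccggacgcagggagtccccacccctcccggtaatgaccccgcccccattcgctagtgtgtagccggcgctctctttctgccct
Emcn: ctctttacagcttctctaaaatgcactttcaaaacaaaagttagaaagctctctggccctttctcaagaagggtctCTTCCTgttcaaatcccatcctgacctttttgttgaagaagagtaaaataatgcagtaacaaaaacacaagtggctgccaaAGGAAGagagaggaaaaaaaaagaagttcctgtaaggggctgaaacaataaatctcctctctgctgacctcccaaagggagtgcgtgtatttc
Tie1: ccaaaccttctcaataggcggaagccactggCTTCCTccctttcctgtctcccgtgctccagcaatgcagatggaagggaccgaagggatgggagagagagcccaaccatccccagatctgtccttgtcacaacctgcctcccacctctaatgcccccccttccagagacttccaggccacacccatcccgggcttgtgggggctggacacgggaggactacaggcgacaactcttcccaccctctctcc
The letters CCGGAA, read as TTCCGG on the other strand, stood in 1 of the 7 promoters, Kdr, and in 12% of 32851 promoter windows of the same length. The letters AGGAAG, read as CTTCCT on the other strand, stood in 4 of the 7, Tie1, Flt1, Eng and Emcn, against 29.5% of the windows. A single GGAA cannot match both. The GATA letters AGATAA, read as TTATCT on the other strand, stood in 0 of the 7 and in 9.99% of the windows. These matches describe the windows and do not show that a factor bound there.

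Some arrays stood apart. Carcinoma replicate 6 correlated over all genes with the rest of its group at a median of 0.767, whereas the 5 others reached 0.941 to 0.959. Disseminated replicate 6 had 0.698, against 0.782 to 0.850 for the other disseminated samples, and metastases replicate 4 had 0.773, against 0.843 to 0.887. Adenoma replicates 3 and 4 had the fewest probes well above background, 50.5% and 47.6%, against 60.8% to 74.8% in the other adenomas, and 63.0% to 78.3% in the other progression groups. Carcinomas and metastases shared 3 slides read on 1 scan day, and adenomas and disseminated cells shared 3 other slides read on another day. Only disseminated cells against adenomas and metastases against carcinomas could therefore be compared within slides, and in the other 4 pairs slide and group cannot be told apart.

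The 10 genes were higher in disseminated cells than in adenomas without exception, with a median log2 difference of 1.43, against -0.0028 over all genes. Of the 10, 7 were called higher, that is, at an adjusted p below 0.05 over all genes in limma and at least 2-fold: Cdh5, Cldn5, Flt1, Esam, Kdr, Emcn and Tie1. In this comparison 4.67% of all genes were called higher and 9.69% in either direction. Without the fold limit 7 of the 10, the same genes, and 19.2% of all genes passed. Pecam1, Eng and Tek were not called. For 4 of the 10, Cdh5, Cldn5, Flt1 and Esam, the groups did not overlap, which held upward for 4.34% of all genes. Of the 4 progression groups, disseminated cells had the highest mean for 8 of the 10 genes, and carcinomas for Tek and Emcn. Of the 5 adenoma arrays, Cdh5, Pecam1, Emcn and Esam were well above background on 3, Kdr on 4 and Tie1 on 0. The folds of these genes over adenomas are thus measured in part or wholly against values not well above background.

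**Figure D1:**
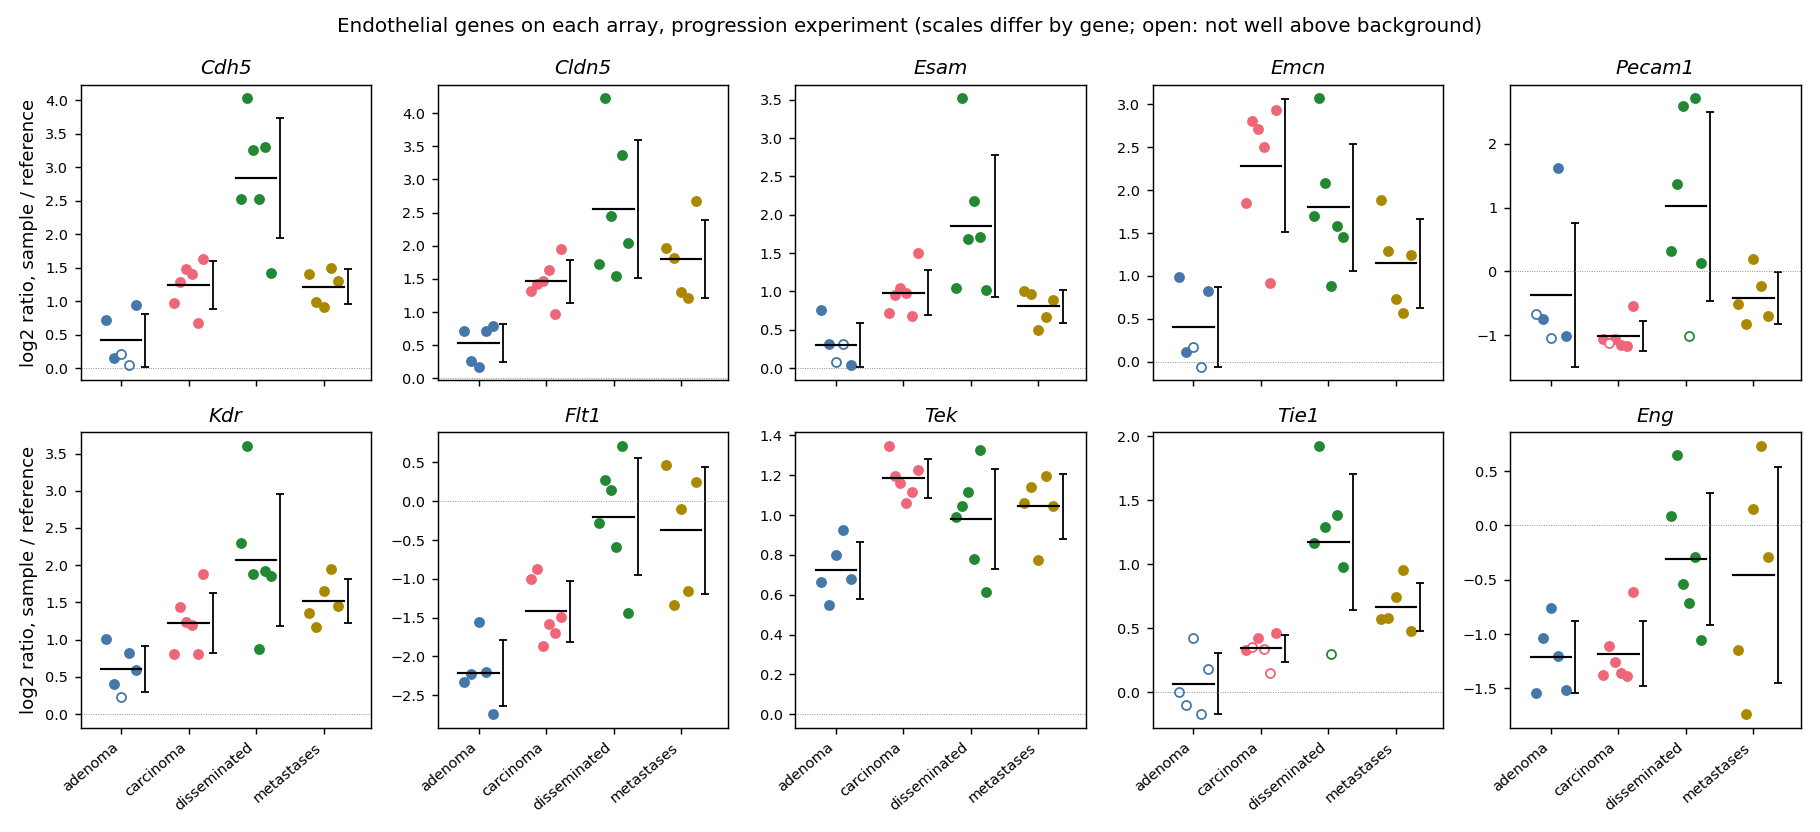
Log2 ratio of sample to reference (vertical axis, with a scale of its own for each gene) of the 10 endothelial genes on each of the 22 progression arrays; points are arrays (open where the sample channel was not well above background), lines are group means and bars 1 SD. The disseminated cells have the highest mean in 8 of the 10 panels and the largest SD in 7 of the 10.

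Cdh5 encodes VE-cadherin, the adhesion molecule of endothelial adherens junctions. Its probe lies at chr8:102744763-102744822 on the plus strand of build mm7, the build of all probe positions in the files. Its log2 ratio was 0.72, 0.14, 0.22, 0.05 and 0.95 in the 5 adenomas, and 1.40, 0.98, 0.91, 1.5 and 1.30 in the 5 metastases. Over the 6 carcinomas it ran from 0.67 to 1.63 with a median of 1.35, and over the 6 samples of disseminated cells from 1.41 to 4.02 with a median of 2.89. Every disseminated sample lay above every adenoma, and all but replicate 6 lay above every carcinoma. The difference between disseminated cells and adenomas was 2.42 (SE 0.32, 5.37-fold, limma adjusted p = 0.000151). Disseminated cells were also higher than carcinomas by 1.60 (SE 0.31, adjusted p = 0.00116), and metastases were lower than disseminated cells by -1.62 (SE 0.32, adjusted p = 0.00263). The latter call was lost with the equal-variance test without moderation (adjusted p = 0.0843). A second Cdh5 probe, 660 bases away, was well above background on 4 of the 38 arrays, all of disseminated cells.

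Cldn5 encodes claudin-5, the main claudin of endothelial tight junctions. The probe lies at chr16:18327686-18327745 on the plus strand. The adenomas had log2 ratios of 0.71, 0.26, 0.18, 0.71 and 0.78, and the metastases 1.96, 1.82, 1.31, 1.22 and 2.67. The carcinomas ran from 0.98 to 1.95 with a median of 1.44, and the disseminated cells from 1.54 to 4.22 with a median of 2.25. All carcinomas, disseminated cells and metastases lay above all adenomas, while the 3 later groups overlapped one another. Disseminated cells exceeded adenomas by 2.03 (SE 0.38, 4.08-fold, adjusted p = 0.00189) and carcinomas by 1.10 (SE 0.36, adjusted p = 0.0309), and metastases exceeded adenomas by 1.27 (SE 0.40, adjusted p = 0.0211). The difference between carcinomas and adenomas, 0.93, was not called (SE 0.38, adjusted p = 0.115). The call against carcinomas was lost when any of carcinoma replicates 1, 2, 3 and 5 or disseminated replicates 2 and 5 was left out, with differences of 0.76 to 1.10. It was also lost with median centring within arrays, with only these groups fitted and with the equal-variance test without moderation. The call of metastases against adenomas was lost without adenoma replicate 3 (1.18, adjusted p = 0.0514), without metastases replicate 5 (1.05, adjusted p = 0.0581) and, chosen after seeing the data, without adenoma replicates 3 and 4 (1.21, adjusted p = 0.0901).

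Esam, an adhesion molecule of endothelial cells and platelets with its probe at chr9:37466577-37466636 on the plus strand, had log2 ratios of 0.76, 0.31, 0.08, 0.31 and 0.05 in adenomas and of 1.0, 0.97, 0.50, 0.66 and 0.89 in metastases. Disseminated cells ran from 1.02 to 3.52 with a median of 1.70, and carcinomas from 0.68 to 1.5 with a median of 0.97. No disseminated sample fell as low as the highest adenoma or the highest metastasis. Disseminated cells exceeded adenomas by 1.56 (SE 0.31, 2.94-fold, adjusted p = 0.00294), a call lost with the equal-variance test without moderation (adjusted p = 0.0567). The difference from carcinomas, 0.88 (SE 0.30, adjusted p = 0.0367), was under 2-fold, and it passed 2-fold without disseminated replicate 1 (1.04, adjusted p = 0.0172) or replicate 6 (1.04, adjusted p = 0.0134). Metastases were lower than disseminated cells by -1.06 (SE 0.31, 2.08-fold, adjusted p = 0.0298). Without disseminated replicate 2, which held the highest value, the latter difference was -0.72, under 2-fold, and it was not called without disseminated replicate 4 (-0.99, adjusted p = 0.0605) or metastases replicate 3 (-0.98, adjusted p = 0.073). Nor was it called with the scanner's processed signals, the authors' deposited log2 ratios, only these groups fitted or the equal-variance test.

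Emcn encodes endomucin, a sialomucin of capillary and venous endothelium, and among the junction genes it was the one with its highest mean in carcinomas, a step above disseminated cells that was not called (adjusted p = 0.343). The probe lies at chr3:137226821-137226880 on the plus strand. Its log2 ratio was 0.98, 0.11, 0.17, -0.06 and 0.83 in adenomas and 1.89, 1.29, 0.74, 0.57 and 1.25 in metastases. Carcinomas ran from 0.92 to 2.93 with a median of 2.61, and disseminated cells from 0.88 to 3.07 with a median of 1.64. Of the 6 carcinomas, 5 lay above every adenoma, and replicate 5 lay within the adenoma range. Emcn was higher than in adenomas in carcinomas by 1.88 (SE 0.38, 3.68-fold, adjusted p = 0.00404) and in disseminated cells by 1.39 (SE 0.38, 2.62-fold, adjusted p = 0.015). Without adenoma replicates 3 and 4, a setting chosen after seeing the data, the difference of disseminated cells was 1.16 (adjusted p = 0.114). This difference was also not called with the equal-variance test without moderation. Metastases were lower than carcinomas by -1.14 (SE 0.38, adjusted p = 0.0357). That call was lost when any of 7 single arrays was left out (carcinoma replicates 2, 3, 4 and 6, metastases replicates 2, 3 and 4), with differences of -1.18 to -1.0. It was also lost with slide as a fixed block.

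Pecam1 encodes the adhesion molecule CD31, which endothelial cells share with platelets and some leukocytes. Its probe spans chr11:106790116-106791969 on the minus strand, and a second probe, of the cDNA clone AK031380, was not well above background on any array. Its values were -0.68, -0.75, -1.04, 1.62 and -1.02 in adenomas and -0.52, -0.83, 0.20, -0.23 and -0.70 in metastases. Carcinomas lay between -1.17 and -0.55 with a median of -1.09, and disseminated cells between -1.02 and 2.71 with a median of 0.84. Adenoma replicate 4 stood far above the other adenomas, and the disseminated cells held both the highest value of all arrays and one near the lowest. Disseminated cells exceeded carcinomas by 2.04 (SE 0.54, 4.11-fold, adjusted p = 0.00892). The difference from adenomas, 1.39 (SE 0.56), was not called (adjusted p = 0.0879). It was called without adenoma replicate 4 (1.89, adjusted p = 0.021) and without disseminated replicate 4 (1.80, adjusted p = 0.0147). Without disseminated replicate 4, metastases were also called lower than disseminated cells (-1.84, adjusted p = 0.0242), which they were not in the main fit over all arrays (-1.43, adjusted p = 0.0976). With the authors' deposited log2 ratios they were called lower over all arrays too.

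Kdr encodes VEGFR2, the main signaling receptor for vascular endothelial growth factor A. Its probe lies at chr5:75351537-75351596 on the minus strand. Adenomas had log2 ratios of 1.0, 0.40, 0.23, 0.82 and 0.59, and metastases of 1.36, 1.17, 1.66, 1.96 and 1.45. Carcinomas ran from 0.81 to 1.88 with a median of 1.22, and disseminated cells from 0.87 to 3.60 with a median of 1.90. All metastases and 5 of 6 disseminated samples lay above every adenoma. The difference of disseminated cells from adenomas was 1.46 (SE 0.32, 2.76-fold, adjusted p = 0.00484), and it was not called with the equal-variance test without moderation. It was 0.74 for the mean of the 2 Kdr probes, of which the other, 30630 bases away, was not well above background on any array. Metastases exceeded adenomas by 0.91 (SE 0.34, adjusted p = 0.0474) and disseminated cells exceeded carcinomas by 0.84 (SE 0.31, adjusted p = 0.0491), both under 2-fold and so not called. They were called without adenoma replicate 1 (1.01, adjusted p = 0.0421) and without disseminated replicate 4 (1.08, adjusted p = 0.00686), respectively.

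Flt1 encodes VEGFR1, which binds vascular endothelial growth factor A and placental growth factor. Adenomas had log2 ratios of -2.33, -2.23, -1.56, -2.20 and -2.74, and metastases of 0.46, -1.33, -0.10, -1.16 and 0.25. Carcinomas ran from -1.87 to -0.88 with a median of -1.54, and disseminated cells from -1.44 to 0.71 with a median of -0.07. The adenomas were the lowest group, below every disseminated sample and every metastasis. Flt1 was higher than in adenomas by 2.01 in disseminated cells (SE 0.36, 4.04-fold, adjusted p = 0.00153) and by 1.83 in metastases (SE 0.38, 3.57-fold, adjusted p = 0.00147). Disseminated cells exceeded carcinomas by 1.22 (SE 0.35, adjusted p = 0.0142), and metastases exceeded carcinomas by 1.04 (SE 0.36, adjusted p = 0.0459). With the mean of the 5 Flt1 probes these differences were 0.66 and 0.65, under 2-fold, and neither was called. The call of metastases against carcinomas was also lost when any of 8 single arrays was left out (carcinoma replicates 1, 3, 4, 5 and 6, metastases replicates 1, 3 and 5), with differences of 0.83 to 1.13. It was lost as well with slide as a fixed block and with the replicate block.

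The 5 Flt1 probes did not move alike in every comparison. The probe used and another 73 bases from it carry the accession NM_010228, and the one 75990 bases away carries BC029674. Between disseminated cells and adenomas these 3 differed by 2.01, 2.07 and 1.87, all called over all probes (adjusted p = 0.00165, 0.000636 and 0.00329). The 2 probes of the cDNA clones AK084177 and AK005502, 83341 and 92185 bases away, differed by 0.16 and 0.17 (adjusted p = 0.212 and 0.306). Between disseminated cells and carcinomas the AK005502 probe was lower by -0.48 (adjusted p = 0.00274, under 2-fold), while the NM_010228 and BC029674 probes were higher by 1.22, 1.45 and 1.19. The AK005502 probe was higher than in adenomas by 0.65 in carcinomas (adjusted p = 0.00112) and by 0.62 in metastases (adjusted p = 0.00056), both under 2-fold, where the AK084177 probe gave 0.25 (adjusted p = 0.056) and 0.32 (adjusted p = 0.011). The AK005502 probe was well above background on all 6 arrays of disseminated cells and the AK084177 probe on 0 of 6. The files give positions in build mm7 with all 5 probes on the minus strand of chromosome 5, between bases 146456619 and 146548863, and which exons they meet was not analysed here.

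**Figure D2:**
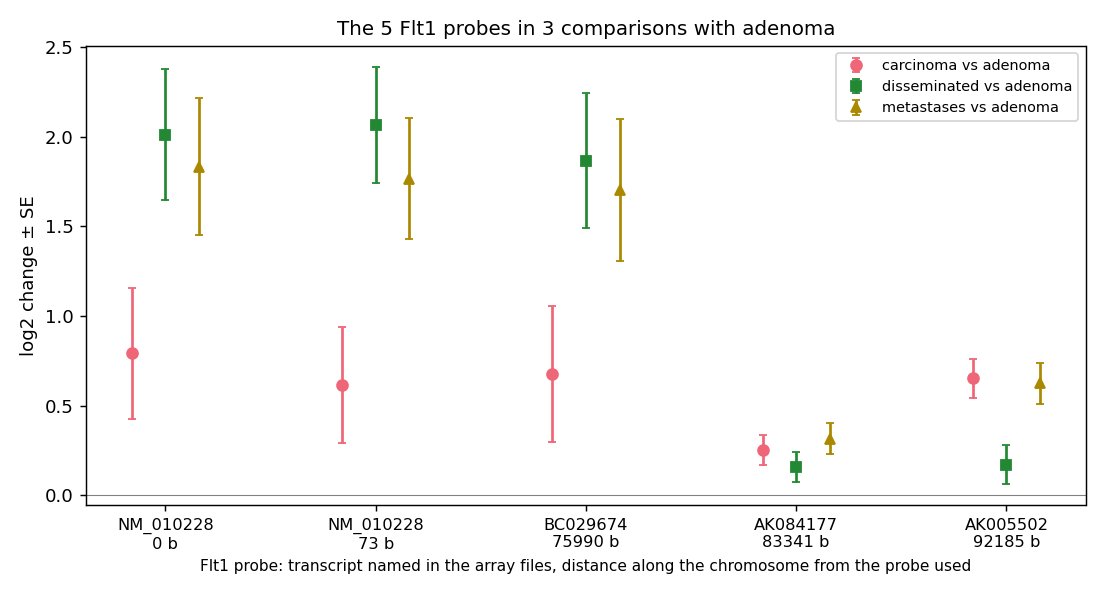
Log2 change ± SE (vertical axis) of the 5 Flt1 probes in carcinomas, disseminated cells and metastases against adenomas, by accession and distance in bases from the probe used. The NM_010228 and BC029674 probes lie between 1.87 and 2.07 in disseminated cells against adenomas, and the AK084177 and AK005502 probes at 0.16 and 0.17.

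Tek, the angiopoietin receptor Tie2, varied least. Its probe with the highest signal, from the cDNA clone AK053336 at chr4:94134402-94134461 on the plus strand, had log2 ratios of 0.66, 0.55, 0.80, 0.92 and 0.68 in adenomas and of 1.06, 1.14, 0.77, 1.2 and 1.05 in metastases. Carcinomas ran from 1.06 to 1.35 with a median of 1.18, and disseminated cells from 0.62 to 1.33 with a median of 1.02. Every carcinoma lay above every adenoma, and the difference of 0.46 (SE 0.11) had an adjusted p of 0.0106 but was under 2-fold. Disseminated cells differed from adenomas by 0.26 (SE 0.11, adjusted p = 0.103). The NM_013690 probe, 132374 bases away, was well above background on 3 of the 22 arrays, 2 of disseminated cells and 1 of metastases. It differed between disseminated cells and adenomas by 0.30 (adjusted p over all probes = 0.0309, under 2-fold) and between disseminated cells and carcinomas by 0.22 (adjusted p = 0.077), where the probe used gave -0.21 (adjusted p = 0.156).

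Tie1, an orphan receptor partner of Tek, was not well above background on any adenoma array. The probe, at chr4:117847966-117848025 on the minus strand, is the single probe of this gene. Its log2 ratio was 0.00, -0.10, 0.42, -0.17 and 0.18 in adenomas and 0.57, 0.58, 0.74, 0.95 and 0.48 in metastases. Carcinomas ran from 0.15 to 0.46 with a median of 0.35, and disseminated cells from 0.30 to 1.92 with a median of 1.23. Metastases lay above all adenomas and all carcinomas, and 5 of 6 disseminated samples did too. The fitted log2 ratio of disseminated cells exceeded that of adenomas by 1.11 (SE 0.19, 2.15-fold, limma adjusted p = 0.00108), and the difference was under 2-fold, 0.96, without disseminated replicate 2. That of metastases exceeded adenomas by 0.60 (SE 0.20, 1.51-fold, adjusted p = 0.0285), and it was called with a normexp offset of 0 and with the scanner's processed signals. Over the alternatives run, the difference from adenomas ran from 0.96 to 3.22 for disseminated cells and from 0.53 to 3.11 for metastases. Since adenomas were not well above background, the Cy5 signal was also set against the dimmest signal counted as well above it. These Cy5 values came after loess against Cy3 and Aquantile normalization between arrays, not the quantile normalization used for the fits. On that scale Tie1 was at least 2.26-fold higher in disseminated cells (mean log2 signal of 8.19 against 6.76 measured in adenomas, well above background on 5 of 6 arrays), at least 1.54-fold in metastases (7.63, 5 of 5) and at least 1.10-fold in carcinomas (7.15, 3 of 6). These bounds hold for the Cy5 scale and not for the ratio to the reference, where the fitted folds were 2.15, 1.51 and 1.21. The fitted difference of carcinomas from adenomas, 0.28 (SE 0.19), was not called (limma adjusted p = 0.37), and these groups overlapped. A bound sets a group mean against a limit and carries no measure of spread. The sample was in Cy5 on every array, so a dye effect shared by all arrays cancels between groups. Without swapped dyes, an effect that is not shared was not tested. The bounds of metastases and carcinomas are open to slide and scan day, and that of carcinomas averages in 3 arrays not well above background. The fitted difference of disseminated cells from carcinomas, 0.83, passed 2-fold and was called without disseminated replicate 4 (1.01, adjusted p = 0.000115).

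Eng encodes endoglin, a co-receptor for ligands of the transforming growth factor beta family. Its probe lies at chr2:32689101-32689160 on the plus strand. Adenomas had log2 ratios of -1.54, -1.04, -0.76, -1.2 and -1.52, and metastases of -1.15, -1.74, 0.15, 0.73 and -0.29. Carcinomas ran from -1.38 to -0.61 with a median of -1.31, and disseminated cells from -1.06 to 0.65 with a median of -0.41. The metastases split, with replicate 1 within the adenoma range, replicate 2 below it and replicates 3, 4 and 5 above every adenoma. Eng was called in none of the 6 comparisons over all arrays by limma, nor by the equal-variance test without moderation, although limma's unadjusted p was below 0.05 in 2 of them, and the difference of disseminated cells from adenomas was 0.90 (SE 0.35, adjusted p = 0.0792). This difference was called with the scanner's processed signals (1.31, adjusted p = 0.038) and with median centring within arrays (1.07, adjusted p = 0.0317). Disseminated cells were called higher without their replicate 6 against adenomas (1.05, adjusted p = 0.0438) and carcinomas (1.02, adjusted p = 0.0341), and metastases without their replicate 2 against adenomas (1.07, adjusted p = 0.0239) and carcinomas (1.04, adjusted p = 0.031).

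Within slides, the differences between disseminated cells and adenomas had the same sign as over all arrays in each of the 3 slides for 9 of the 10 genes. Cdh5 differed by 1.58, 2.73 and 3.06, Cldn5 by 1.17, 2.39 and 2.71, and Flt1 by 1.40, 2.91 and 1.40. Pecam1 was the exception, at -0.25 on the slide that held adenoma replicate 4 and 3.54 and 1.22 on the others. Between metastases and carcinomas, Emcn was lower on each slide, by -1.67, -1.05 and -0.64, and Flt1 was higher on each, by 1.30, 1.09 and 0.26. A slide held 1 or 2 arrays of a group, so these values carry no test of their own. In a fit of metastases and carcinomas with slide as a fixed block, Emcn and Flt1 both lost their calls.

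Between carcinomas and adenomas 9 of the 10 were higher, with a median of 0.65 against 0.065 over all genes, and 1 was called, Emcn (1.2% of all genes were called higher and 3.21% in either direction). Tek passed too without the fold limit, as did 11.6% of all genes. Between metastases and adenomas 9 were higher, with a median of 0.75 against 0.026, and 2 were called, Flt1 and Cldn5 (7.15% of all genes called higher, 14.5% in either direction). Without the fold limit Kdr, Tie1 and Tek passed as well, 5 of the 10 against 28.7% of all genes. These 3 comparisons share the adenomas. Between disseminated cells and carcinomas 8 were higher, with a median of 0.87 against -0.061, and 4 were called, Pecam1, Cdh5, Flt1 and Cldn5 (5.6% called higher, 11.1% in either direction). Without the fold limit Esam, Kdr and Tie1 passed as well, 7 of the 10 against 25.7% of all genes. Emcn and Tek ran the other way, with differences of -0.49 (adjusted p = 0.343) and -0.21 (adjusted p = 0.156), although the other Tek probe gave 0.22. These counts were 1 and 4 for carcinomas against adenomas and disseminated cells against carcinomas without carcinoma replicate 6, as over all arrays.

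Between metastases and carcinomas 6 were higher and 4 lower, with a median of 0.31 against -0.036, and 1 was called higher, Flt1, and 1 lower, Emcn (5.77% of all genes called higher, 4.31% lower and 10.1% in either direction). These 2 were also the ones that passed without the fold limit, against 21.7% of all genes. Neither was called without carcinoma replicates 3, 4 or 6 or metastases replicate 3. Between metastases and disseminated cells 9 were lower, with a median of -0.60 against 0.016, and 2 were called lower, Cdh5 and Esam (3.34% called lower, 7.5% in either direction), the same 2 of 10 as without the fold limit, which 13.8% of all genes passed. Tek was the exception by the probe used, at 0.06 (adjusted p = 0.766). Its other probe, seldom well above background, gave -0.08 (limma adjusted p over all probes = 0.623), so the sign of Tek depended on the probe. In each gene's order of the 4 group means, 2 steps between neighbors were called, that of Cdh5 from disseminated cells down to carcinomas and that of Flt1 from metastases down to carcinomas, and no other step was. The step of Esam from disseminated cells down to carcinomas passed limma's adjusted p (0.0367) but not the fold limit.

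**Figure D3:**
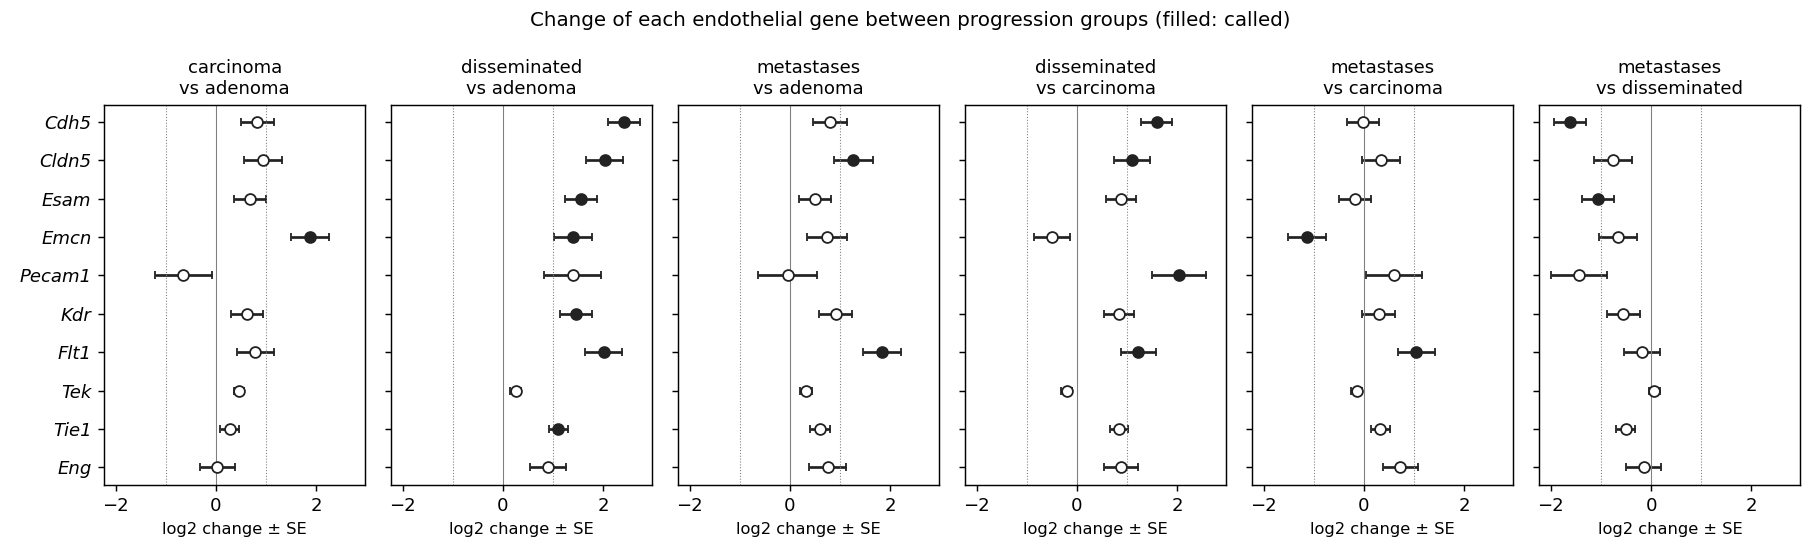
Log2 change ± SE (horizontal axis) of the 10 endothelial genes in the 6 comparisons of the progression groups; filled points were called at an adjusted p below 0.05 and at least 2-fold, and dotted lines mark 2-fold. Disseminated cells against adenomas holds 7 filled points, and carcinomas against adenomas holds 1, Emcn.

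The same arrays tended to be high for many of the genes. Disseminated replicate 2 had the highest value of its group for 7 genes and replicate 5 for the 3 others, Pecam1, Flt1 and Tek, whereas replicates 4 and 6 were each lowest for 5. Carcinoma replicate 6 was highest for 8 genes and replicate 5 lowest for 7. Over the 22 arrays the correlation of each gene with the mean of the 9 others was 0.91 for Cdh5 and Cldn5, 0.89 for Tie1, 0.88 for Kdr, 0.81 for Esam, 0.74 for Flt1, 0.59 for Eng, 0.55 for Pecam1, 0.50 for Emcn and 0.43 for Tek. These correlations hold the differences between groups as well as the spread within them. Among 21191 other genes well above background on 11 or more of the arrays, those most correlated with the mean of the 10 were Clec18a (0.94), 9830134C10Rik (0.94), Adcy4 (0.93), Scn3b (0.93) and Mmp8 (0.93).

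Other genes of blood vessels were read in the same way, with 4.67% of all genes called higher and 5.01% called lower in disseminated cells than in adenomas. Of 31 other genes known from endothelium, 26 were higher in disseminated cells than in adenomas, 16 were called higher and 1 lower, with a median of 1.07. The largest rise was in Cd93 (4.27, SE 0.78, adjusted p = 0.00167), a glycoprotein of endothelial and myeloid cells, and the fall was in Palmd (-1.46, adjusted p = 0.0379). Of 24 transcription factors of endothelium, 6 were called higher, led by Lyl1 (3.82, adjusted p = 0.00323), a factor shared with blood cells, and 2 lower, led by Klf2 (-1.39, adjusted p = 0.0172), which responds to blood flow. Of 9 lymphatic genes 4 were called higher, led by the hyaluronan receptor Lyve1 (4.10, adjusted p = 0.000283), which some macrophages also carry. Of 19 arterial, venous and Notch genes 2 were called higher, led by Nrp2 (3.31, adjusted p = 0.019), and 1 lower, Ephb4 (-1.15, adjusted p = 0.0359). Of 17 vascular ligands 2 were called higher, led by Tgfb1 (1.87, adjusted p = 0.00205), and 2 lower, led by Tgfb3 (-2.01, adjusted p = 0.0219). Of 13 pericyte and smooth muscle genes 0 were called higher and 2 lower by limma, led by Cnn1, a calponin of smooth muscle (-1.81, adjusted p = 0.0162).

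In the other comparisons the 31 other endothelial genes held 2 called higher in carcinomas than in adenomas, led by Ramp2 (2.29, adjusted p = 0.00998), which pairs with the adrenomedullin receptor, and 11 called higher and 1 lower in disseminated cells than in carcinomas, led by the thrombin receptor thrombomodulin, Thbd (3.67, adjusted p = 0.000624). In metastases 7 of the 31 were called lower than in disseminated cells and 0 higher, led by the adhesion molecule Icam2 (-2.24, adjusted p = 0.00955). In metastases 3 were called higher and 2 lower than in adenomas, led by Cd93 (3.30, adjusted p = 0.00516) and Palmd (-1.73, adjusted p = 0.014). Against carcinomas 2 were called higher and 1 lower, led by Thbd (2.09, adjusted p = 0.0324) and Palmd (-1.41, adjusted p = 0.0403), and 19 of the 31 were lower, with a median of -0.18 where that of the 10 genes was 0.31. Of all genes, 1.2% were called higher in carcinomas than in adenomas, 5.6% higher and 5.48% lower in disseminated cells than in carcinomas, 3.34% lower in metastases than in disseminated cells, 7.15% higher and 7.39% lower in metastases than in adenomas, and 5.77% higher and 4.31% lower in metastases than in carcinomas. The last 2 comparisons of the list lie near these shares. Among the vascular ligands, Pgf, placental growth factor and a ligand of Flt1, was higher than in adenomas by 2.05 in carcinomas (adjusted p = 0.00261) and by 2.75 in metastases (adjusted p = 8.29e-05). Pdgfb, a growth factor that recruits pericytes, was lower than in adenomas in both, by -1.54 (adjusted p = 0.00586) and -1.41 (adjusted p = 0.00472). In each of these comparisons 2 of the 17 ligands were called higher and 1 lower, with medians of 0.15 in carcinomas and -0.23 in metastases. Of all genes 1.2% were called higher and 2.01% lower in carcinomas than in adenomas. In metastases the shares were 7.15% and 7.39%, and the ligand counts there lie near them.

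Genes of other cell types were read on the same arrays. In disseminated cells against adenomas 4.67% of all genes were called higher and 5.01% lower. Of 17 macrophage genes, 17 were called higher in disseminated cells than in adenomas, with a median of 3.99, led by Chil3 (8.61, adjusted p = 8.15e-05). Their mean log2 ratio was -0.21, -0.47, -0.48, -0.22 and -0.22 in adenomas and ran from 3.03 to 4.97 in disseminated cells, where all 17 were well above background on every array. In carcinomas it was 3.68 in replicate 6 and between -0.95 and 0.17 in the 5 others, and in metastases it was 3.39, 0.77, 4.23, 5.08 and 1.44. The brightest of these genes, the monocyte receptor Cd14, had log2 ratios of 2.26 to 3.99 in adenomas and 4.04 to 7.95 in disseminated cells. Of 12 platelet genes 3 were called higher, led by Pf4 (5.25, adjusted p = 0.00871), with mean log2 ratios of -0.58 to -0.27 in adenomas and 0.04 to 0.95 in disseminated cells. Of 11 lung epithelial genes 5 were called higher, led by the surfactant gene Sftpa1 (4.25, adjusted p = 5.41e-06), and 1 lower, Aqp5 (-2.04, adjusted p = 0.044).

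Of 4 erythroid genes 2 were called higher, led by Hba-a1 (2.75, adjusted p = 4.39e-05), and of 10 T and B cell genes 2 were called higher, led by Cd79b (2.12, adjusted p = 0.0264). The shares of all genes in this comparison were again 4.67% higher and 5.01% lower. Of 10 fibroblast genes 2 were called lower, led by Postn (-2.04, adjusted p = 0.00361). Of 14 mammary epithelial genes 13 were lower in disseminated cells and 1 was called, Elf5 (-2.17, adjusted p = 0.0282), a count near the share of all genes called lower. Their mean log2 ratio was 2.48 to 3.13 in adenomas and 2.21, 1.32, -0.09, 2.40, 0.41 and 3.34 in disseminated replicates 1 to 6. The lowest 3 of these, replicates 2, 3 and 5, were the 3 with the highest means of the endothelial genes. Over the 22 arrays the mean of the 10 genes correlated with that of the 31 other endothelial genes at 0.94, with the platelet list at 0.82, the lung epithelial list at 0.77, the macrophage list at 0.73 and the mammary epithelial list at -0.61. The endothelial transcription factors were at 0.82, the lymphatic list at 0.80, the erythroid list at 0.71 and the T and B cell list at 0.62. The arterial, venous and Notch list was at 0.17, the fibroblast list at 0.01, the vascular ligands at 0.0072 and the pericyte and smooth muscle list at -0.33. The part of these cell types in the endothelial values was not tested.

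**Figure D4:**
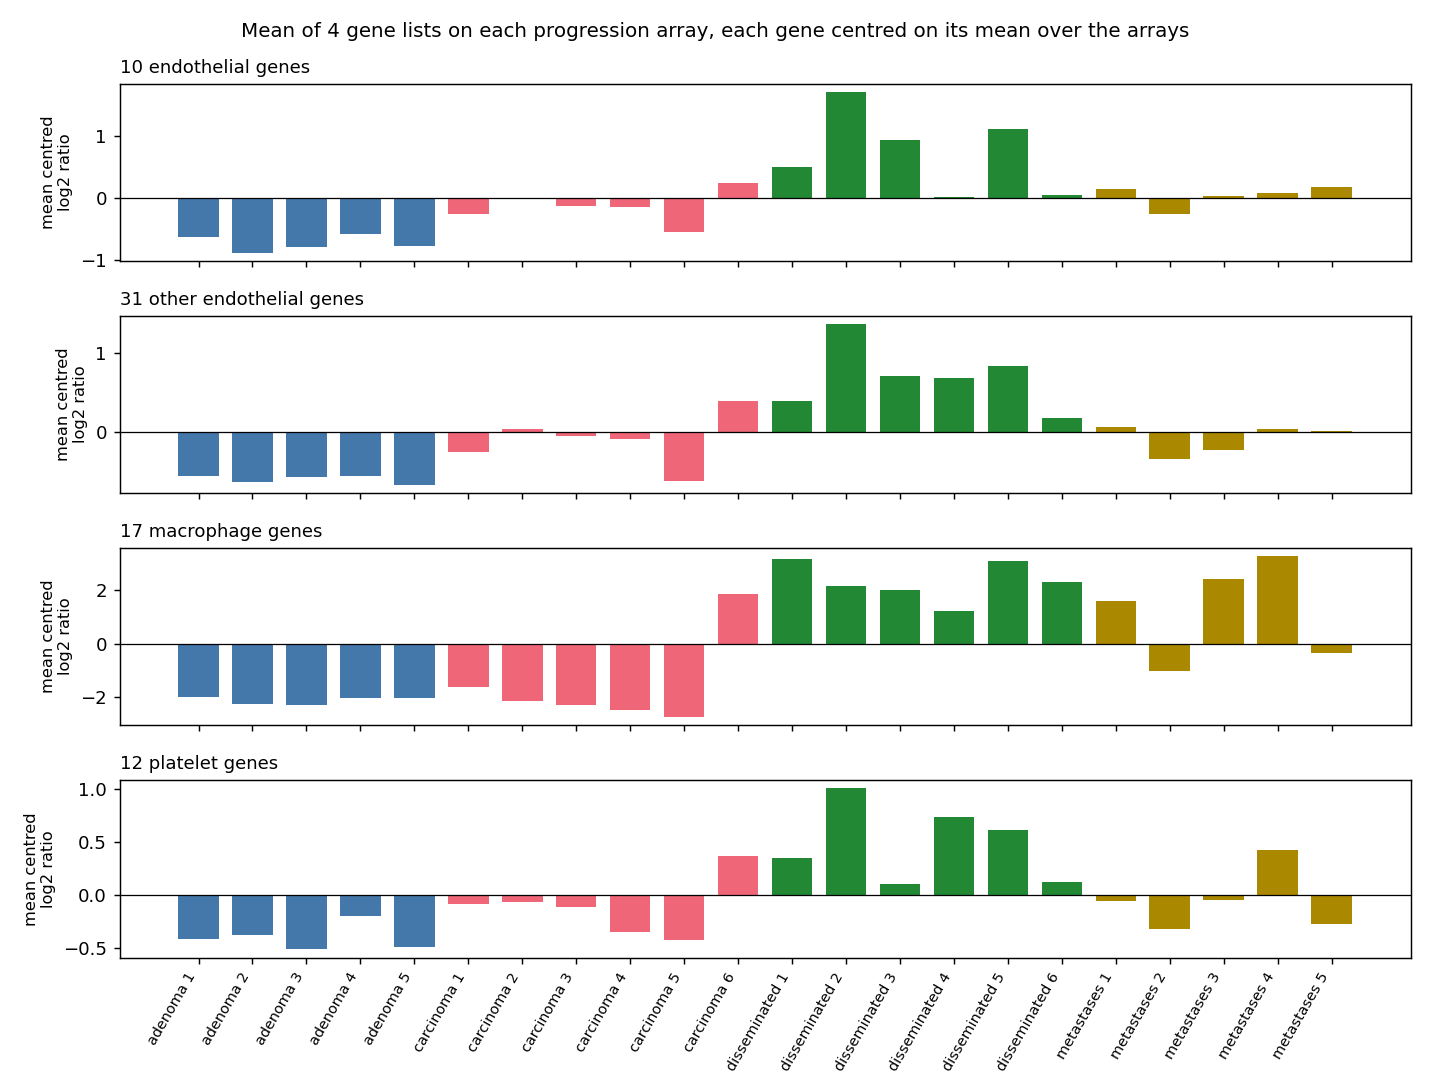
Mean log2 ratio of 4 gene lists on each of the 22 progression arrays (vertical axis), each gene first centred on its mean over the arrays; bars are arrays, colored by group, and the scales differ between panels. Disseminated replicates 2 and 5 are highest for the 10 endothelial genes, and carcinoma replicate 6 stands above the other carcinomas in all 4 panels.

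In the chemotherapy experiment none of the 10 genes was called by limma in regressed against untreated tumors, resistant against untreated tumors or resistant against regressed tumors, where 0.101%, 0.0104% and 0.208% of all genes were called in either direction. At an unadjusted p below 0.05, limma had 0 of the 10 in the first comparison, 1 in the second (Flt1) and 3 in the third (Cdh5, Emcn and Esam), and an equal-variance test without moderation had 0, 0 and 4. Of all genes, 9.05%, 7.63% and 7.72% passed by limma and 8.28%, 7.44% and 7.07% by the other test. Pecam1 and Tie1 were not well above background on any of the 16 arrays, and Tek was on 7. Untreated tumors, the control group, enter 2 of the comparisons, and regressed and resistant tumors enter 2 each.

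Relative to untreated tumors, 8 of the 10 were lower in regressed tumors, with a median of -0.14, and 7 were higher in resistant tumors, with a median of 0.20, against -0.0042 and 0.013 over all genes. Between resistant and regressed tumors all 10 differences were above 0, with a median of 0.30 against 0.016. These counts include Pecam1, Tie1 and Tek, at 0.02, 0.14 and 0.13 in the last comparison, whose signs carry no weight since their signal was at or near background. Each pair of groups shared a single slide, with 1 or 2 arrays of each, so slide and group largely coincided. The slide of regressed and untreated tumors had Cdh5, Eng, Emcn, Esam and Cldn5 higher in regressed tumors, by 0.28, 0.19, 0.46, 0.60 and 0.71. Pecam1, Kdr, Tek, Tie1 and Flt1 kept their sign there. On the shared slides of resistant tumors, Pecam1 and Cldn5 turned lower against untreated tumors, and Tie1 against regressed tumors. Cdh5 ran from 0.47 to 2.64 in untreated tumors with a median of 1.0 and from 0.34 to 0.89 in regressed tumors with a median of 0.59, and it was 0.94, 2.34, 2.19 and 1.34 in resistant tumors. The 4 resistant tumors lay above all 6 regressed tumors, the single gene of the 10 for which these groups did not overlap (0.674% of all genes upward), and both overlapped the untreated tumors. The difference of 1.10 (SE 0.35) had an adjusted p of 0.381. Emcn was 0.98, 2.67, 2.47 and 1.5 in resistant tumors and 0.47 to 1.29 in regressed tumors with a median of 0.72, and the difference of 1.11 (SE 0.39) had an adjusted p of 0.452. In untreated tumors Emcn ran from 0.43 to 2.82 with a median of 1.48.

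Flt1 was -0.20, 0.18, -1.22 and -1.12 in resistant tumors and ran from -2.26 to -0.57 in untreated tumors, where replicates 2 and 3 stood above the 4 others. The difference of 0.98 (SE 0.36) had an adjusted p of 0.454. Untreated replicate 2 and resistant replicate 2 were each the highest of their group for 8 genes, and regressed replicate 3 was lowest for 6. The counts include Tie1 (untreated), Pecam1 (resistant) and Pecam1 and Tek (regressed), whose signal was at or near background. Over the 16 arrays Cdh5 correlated with the mean of the 9 others at 0.95, Esam at 0.89, Cldn5 at 0.86, Emcn at 0.83 and Kdr at 0.76, while Tek was at 0.04 and Pecam1 at 0.21. The genes most correlated with the mean of the 10, of 16372 compared, were Rasip1 (0.90), Mmrn2 (0.89), Robo4 (0.88), Adcy4 (0.87) and Gpihbp1 (0.85). Of these, Rasip1, Mmrn2, Robo4 and Gpihbp1 are among the 31 other endothelial genes. That list correlated with the 10 at 0.85, the lymphatic list at 0.68, the platelet list at 0.53 and the pericyte and smooth muscle list at 0.51. The fibroblast list was at 0.47, the erythroid list at 0.46 and the arterial, venous and Notch list at 0.44. The vascular ligands were at 0.42, the lung epithelial list at 0.36 and the macrophage list at 0.30. The endothelial transcription factors were at 0.29, the mammary epithelial list at 0.25 and the T and B cell list at -0.49. Of all lists 1 gene was called in 1 comparison, Ecscr, a receptor of endothelial cells, higher in regressed than in untreated tumors by 1.03 (SE 0.18, adjusted p = 0.0315). Its list of 31 mostly ran the other way there, with 23 lower and 8 higher and a median of -0.076. Of all genes 0.0973% were called higher in that comparison.

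**Figure D5:**
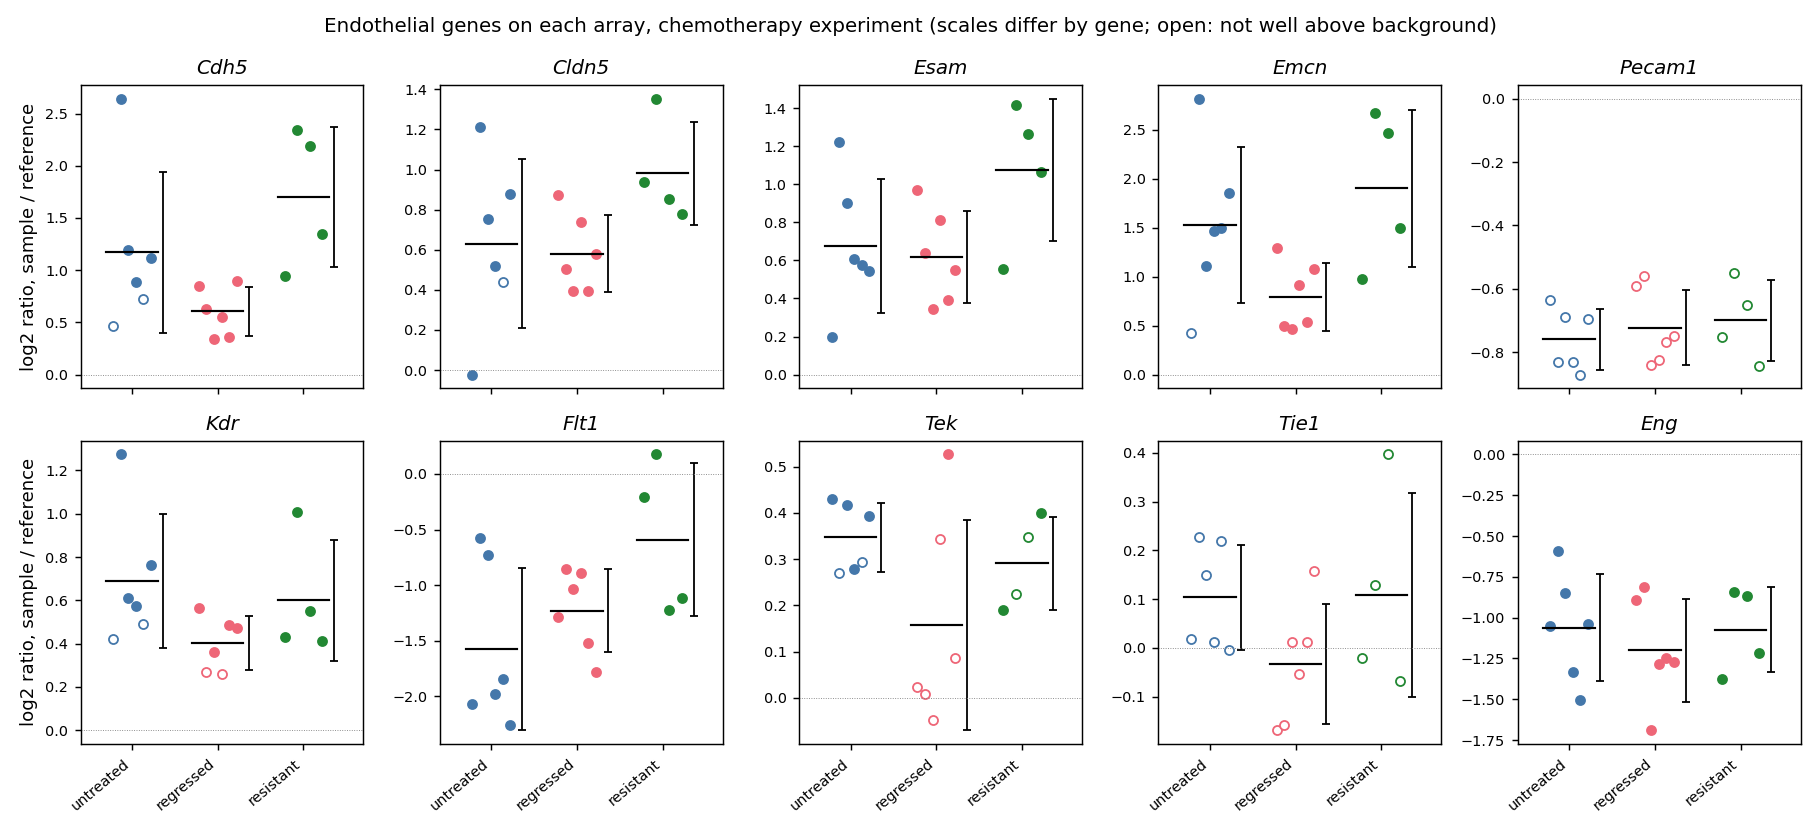
Log2 ratio of sample to reference (vertical axis, with a scale of its own for each gene) of the 10 endothelial genes on each of the 16 chemotherapy arrays; points are arrays (open where the sample channel was not well above background), lines are group means and bars 1 SD. The 4 resistant tumors lie above the 6 regressed tumors for Cdh5, and the groups overlap in the 9 other panels.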

How the data were processed

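Per the labels and the study's methods, the authors scanned each array for the Cy5 and Cy3 intensity of every spot, with Feature Extraction 10.7, and a deposited table holds log2 ratios of sample to reference that the authors made by background correction (normexp), loess within each array and, per the methods, quantile normalization between arrays. Gene expression was analysed from the deposited mean and background intensities with limma 3.58.1 in R 4.3.3: normexp with an offset of 50, loess within arrays, quantile normalization across the 22 or 16 arrays of each experiment, and the mean over the spots of a probe. Control spots had no weight in loess and were then left out. The authors' deposited log2 ratios served as an alternative, and their correlation with the values used was 0.963 to 1.000 per array.

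Gene names came from accessions for 23082 probes and from the array files for 18092. Each gene was read by its probe with the highest mean signal. The groups of an experiment were fitted together, with Benjamini-Hochberg adjustment over 28781 gene names, and genes were called at an adjusted p below 0.05 and at least 2-fold. Named in the text are the 10 members, the gene of each list with the largest called change in each direction, and the 5 genes most correlated with the members' mean. The members and lists were chosen with earlier results of these data known. Between 47.6% and 78.3% of the probes were well above background on an array, and the number of arrays limits the precision. The steps were tested on simulated data. The alternatives covered the background, the normalization, the probe choice, slide and replicate blocks, the test, the thresholds and the arrays left out.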

Additional observations from a re-analysis of the deposited data

Results flagged for a closer look

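In 4 groups a single array stood apart from the rest in the log2 ratio of an endothelial gene, by a gap to its nearest neighbor that took up more of the group's range than Dixon's 95% limit allows. Over the 70 groups examined, chance passes this limit for about 1 in 20, so the 4 found are near the number that chance alone would give. Pecam1 was 1.62 in adenoma replicate 4, while the 4 other adenomas lay between -1.04 and -0.68, and the 9 usable spots of the probe on that array had processed log2 ratios of 1.81 to 2.01. Carcinoma replicate 6, the array least like its group, was apart for Pecam1 at -0.55 (the others -1.17 to -1.06) and for Eng at -0.61 (the others -1.38 to -1.11). Its mean log2 ratio over the macrophage genes was 3.68, and over the 31 other endothelial genes 0.85, the highest of the carcinomas in both. Untreated replicate 2 had 2.64 for Cdh5, the junction cadherin, where the 5 other untreated tumors lay between 0.47 and 1.19. The same tumor was the highest of its group for 8 of the 10 genes, among them Tie1, which was not well above background. What sets these arrays apart was not tested.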

How the results depend on the processing

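Of the 10 genes in 6 progression comparisons, 18 changes were called. Each kept its direction under all alternatives run, and 11 of the 18 lost the call under at least 1. For carcinomas against adenomas, where 1 gene was called, there were 2 at an adjusted p below 0.05 without the fold. For disseminated cells against adenomas, 7 became 4 with the equal-variance test without moderation, where Kdr, Esam and Emcn had adjusted p = 0.062, 0.0567 and 0.0542. For metastases against adenomas, 2 became 5 with an offset of 0, 5 with the scanner's processed signals, 5 without the fold, 4 with the deposited log2 ratios, 1 at an adjusted p below 0.01 and 1 without adenoma replicates 3 and 4 (chosen after seeing the data). For disseminated cells against carcinomas, 4 became 7 with an offset of 0, 7 without the fold and 2 below 0.01. Cldn5 lost this call with median centring within arrays, with only these groups fitted and with the equal-variance test (3 called). Flt1 lost it with the mean of probes. For metastases against carcinomas, 2 became 0 with Aquantile, with no normalization between arrays, with slide as a fixed block, with the equal-variance test and below 0.01, and 1 with the deposited log2 ratios, the mean of probes and the replicate block. For metastases against disseminated cells, 2 became 1 with the processed signals, with only these groups fitted and below 0.01, and 0 with the equal-variance test. With the deposited log2 ratios Pecam1 was called there in place of Esam. The cause was not tested. For disseminated cells against adenomas, Eng was called with the processed signals (1.31) and with median centring within arrays (1.07). Leaving out 1 array at a time gave 1 to 1, 6 to 8, 1 to 3, 3 to 6, 0 to 2 and 1 to 2 called, in the order of these comparisons. In the chemotherapy comparisons the count was 0 under all alternatives. In no comparison did all same-numbered replicates deviate together (a correlation above 0.1 in every pair), so the numbers were not taken as pairs. The arrays carry 4 to 6 samples a group, and Pecam1 and Tie1 in the chemotherapy tumors lay under the background limit.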
